A study of Mus musculus with 5 samples.

Results

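The genes described here are 36 cell cycle and DNA replication genes of the mouse, taken as a list of named genes. Of them, 16 act in S phase or at entry into it, and 20 act in G2 and mitosis. Each was represented by the probe set that carries that gene symbol alone and has the highest mean over all 5 arrays. By this rule 35 of the 36 genes had a value, among 19937 genes in all, and Ccnb1 was not analysed here. Of these 35, 32 had a mean level above the lower quartile of all genes and 20 above the median.

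A dividing cell first licenses its replication origins by loading the MCM helicase, then fires them and copies its DNA with clamps, polymerases and a supply of deoxynucleotides. Cyclin-dependent kinases with cyclins A and B then drive the cell into mitosis, where kinesins and Aurora and Polo kinases build the spindle, and the anaphase-promoting complex ends the process by marking its substrates for destruction. Most of these transcripts are low in resting T cells and rise when T cells are activated, with the S-phase genes under E2F factors and the mitotic genes under complexes that bind the cell cycle homology region (CHR) and NF-Y boxes of their promoters.

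The study sorted CD4 T cells with low CD44, an adhesion receptor that marks antigen-experienced T cells, by their surface CD45, CD3, CD4 and CD44 from mouse colon lamina propria. Conditional samples (CD4cre/Cnb1flox, 3 arrays) carried a Cre recombinase under CD4 control with floxed Cnb1, which encodes calcineurin B, the regulatory subunit of the calcium-dependent phosphatase calcineurin. Control samples (CD4neg/Cnb1flox, labelled control WT, 2 arrays) carried the floxed gene without the Cre, so both groups shared the floxed alleles. The series text gives 3 independent experiments with 3 to 5 mice per group, and gives no age. The labels do not say whether an array holds 1 mouse or a pool, so the spread that the p-values below rest on may be technical and is that of these samples alone. CD4-driven Cre acts from the thymus onwards in developing T cells, so recombination precedes their arrival in the gut.

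Several facts of the arrays bear on what follows. The targeted gene is listed as Ppp3r1, whose log2 signal was 8.64, 8.83 and 8.77 on conditional replicates 1, 2 and 3 and 8.99 and 8.60 on control replicates 1 and 2. The groups overlapped (difference -0.05, SE 0.159, limma adjusted p = 0.927), and where this probe set lies against the floxed part is not given in the sources used here, so it does not check the labels. Defining T cell markers were lower on control replicate 1: Cd3e read 11.67, 11.61 and 11.88 on the conditional arrays, 9.45 on control replicate 1 and 12.21 on control replicate 2. The linear signal summed over 18 of 20 listed T cell markers was 35254 to 41557 on the conditional arrays, 7204 on control replicate 1 and 43766 on control replicate 2. Over 23 of 24 epithelial markers it was 4826 to 6744, 28765 and 8998 in that order, and over 20 of 20 stromal and endothelial markers 18020 to 29675, 61082 and 28761. The colonocyte keratin Krt20 was the 1 called gene of the 23 epithelial markers, lower in the conditional group (-1.67, limma adjusted p = 0.0327). It read 6.27, 5.95 and 6.25 on the conditional arrays and 7.88 and 7.76 on the controls, so it was high on both controls. Of the 23 epithelial markers, 13 were lower on every conditional array than on both controls (56.5%, beside 13.1% of all genes), and 0 were higher on every one. In these T cell, epithelial and stromal sums, control replicate 1 stood apart from the other 4 arrays. Medians and the main differences below are therefore also given against each control.

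Promoters are shown for the members with the largest differences in each class, so that the regulatory words of the S-phase and mitotic members can be seen beside their values. RefSeq promoter windows of 300 bases (250 before the start site and 50 after it, GRCm38.p6) matched 30 of the 36 genes, 14 S-phase and 16 mitotic, Ccnb1 among the latter. Each word was searched on both strands. The NF-Y box was read as CCAAT and the CHR word as TTTGAA. The E2F site was read as any of 4 words, which are TTTCCCGC, TTTCGCGC, TTTGCCGC and TTTGGCGC. E2F words can overlap each other, as in Mcm5 and Mcm6, and capitals below mark every match. Each sequence is read 5′ to 3′ along the gene's own strand.
Top2a, chr11:99024140-99024439 (- strand): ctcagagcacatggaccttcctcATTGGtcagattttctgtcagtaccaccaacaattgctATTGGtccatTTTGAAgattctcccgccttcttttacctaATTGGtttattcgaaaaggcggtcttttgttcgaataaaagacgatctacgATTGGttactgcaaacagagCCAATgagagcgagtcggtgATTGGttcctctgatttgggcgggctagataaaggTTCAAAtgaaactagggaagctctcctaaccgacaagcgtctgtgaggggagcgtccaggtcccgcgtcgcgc
Kif11, chr19:37376132-37376431 (+ strand): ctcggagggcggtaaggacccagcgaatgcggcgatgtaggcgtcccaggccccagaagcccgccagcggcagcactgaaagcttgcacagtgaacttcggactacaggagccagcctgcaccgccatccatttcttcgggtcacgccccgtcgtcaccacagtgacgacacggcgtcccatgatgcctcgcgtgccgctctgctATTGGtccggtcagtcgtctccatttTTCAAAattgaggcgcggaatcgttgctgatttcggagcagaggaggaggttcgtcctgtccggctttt
Mki67, chr7:135716330-135716629 (- strand): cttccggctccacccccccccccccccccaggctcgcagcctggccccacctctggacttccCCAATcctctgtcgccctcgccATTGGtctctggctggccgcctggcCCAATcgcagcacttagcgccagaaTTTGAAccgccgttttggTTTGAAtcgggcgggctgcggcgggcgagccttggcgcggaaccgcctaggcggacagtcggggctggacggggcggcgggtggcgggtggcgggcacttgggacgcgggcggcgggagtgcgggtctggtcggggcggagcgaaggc
Aurka, chr2:172370521-172370820 (- strand): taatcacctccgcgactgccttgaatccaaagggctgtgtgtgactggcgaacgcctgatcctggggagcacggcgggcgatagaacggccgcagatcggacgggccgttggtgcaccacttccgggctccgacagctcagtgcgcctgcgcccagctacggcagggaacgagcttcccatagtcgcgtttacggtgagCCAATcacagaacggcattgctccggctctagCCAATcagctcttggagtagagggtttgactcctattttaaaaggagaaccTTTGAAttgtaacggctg
Mcm6, chr1:128359656-128359955 (- strand): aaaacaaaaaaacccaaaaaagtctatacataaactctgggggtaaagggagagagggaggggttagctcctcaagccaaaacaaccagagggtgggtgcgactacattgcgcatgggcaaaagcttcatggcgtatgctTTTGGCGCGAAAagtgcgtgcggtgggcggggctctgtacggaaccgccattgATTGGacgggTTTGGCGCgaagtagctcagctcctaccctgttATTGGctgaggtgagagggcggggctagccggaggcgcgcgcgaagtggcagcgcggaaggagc
Mcm5, chr8:75109259-75109558 (+ strand): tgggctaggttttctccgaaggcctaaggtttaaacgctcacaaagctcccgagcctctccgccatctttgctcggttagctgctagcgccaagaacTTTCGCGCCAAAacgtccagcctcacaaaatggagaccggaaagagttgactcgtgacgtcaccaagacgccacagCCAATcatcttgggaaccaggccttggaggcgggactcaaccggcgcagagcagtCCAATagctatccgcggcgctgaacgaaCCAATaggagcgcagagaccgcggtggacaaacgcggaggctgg
Cdc6, chr11:98907901-98908200 (+ strand): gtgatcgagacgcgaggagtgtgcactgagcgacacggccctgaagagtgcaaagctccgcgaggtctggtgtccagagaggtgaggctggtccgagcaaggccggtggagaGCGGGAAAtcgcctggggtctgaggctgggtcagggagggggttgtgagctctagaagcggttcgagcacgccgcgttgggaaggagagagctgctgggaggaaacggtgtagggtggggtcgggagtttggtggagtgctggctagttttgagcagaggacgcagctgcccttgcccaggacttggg

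The CHR word was found in 11 of 16 mitotic promoters (68.8%, exact 95% interval 41.3 to 89.0%) and in 2 of 14 S-phase promoters (14.3%, 1.78 to 42.8%), against 20.2% of all 27025 genes with a window. All 11 mitotic genes kept a match when the window was cut to its last 150 bases, where 9.23% of all genes hold one. In Kif11 the CHR word begins 19 bases before the start site and in Top2a 23 bases before it, each downstream of an NF-Y box. The NF-Y box was present in 14 of 16 mitotic promoters (87.5%) and 9 of 14 S-phase promoters (64.3%), against 41.1% of all genes. Top2a held 6 such boxes and Mki67 held 3. In the last 150 bases the NF-Y box was in 75% of mitotic and 57.1% of S-phase promoters. An E2F word was found in 5 of 14 S-phase promoters (35.7%; Mcm3, Mcm5, Mcm6, Mcm7 and Cdc6) and in 1 of 16 mitotic promoters (6.25%; Cdk1), against 2.6% of all genes. The last 150 bases held one in 3 of 14 S-phase promoters (21.4%) and 0 of 16 mitotic promoters, against 1.45% of all genes. A match is a run of letters and not a measured binding site.

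**Figure D1:**
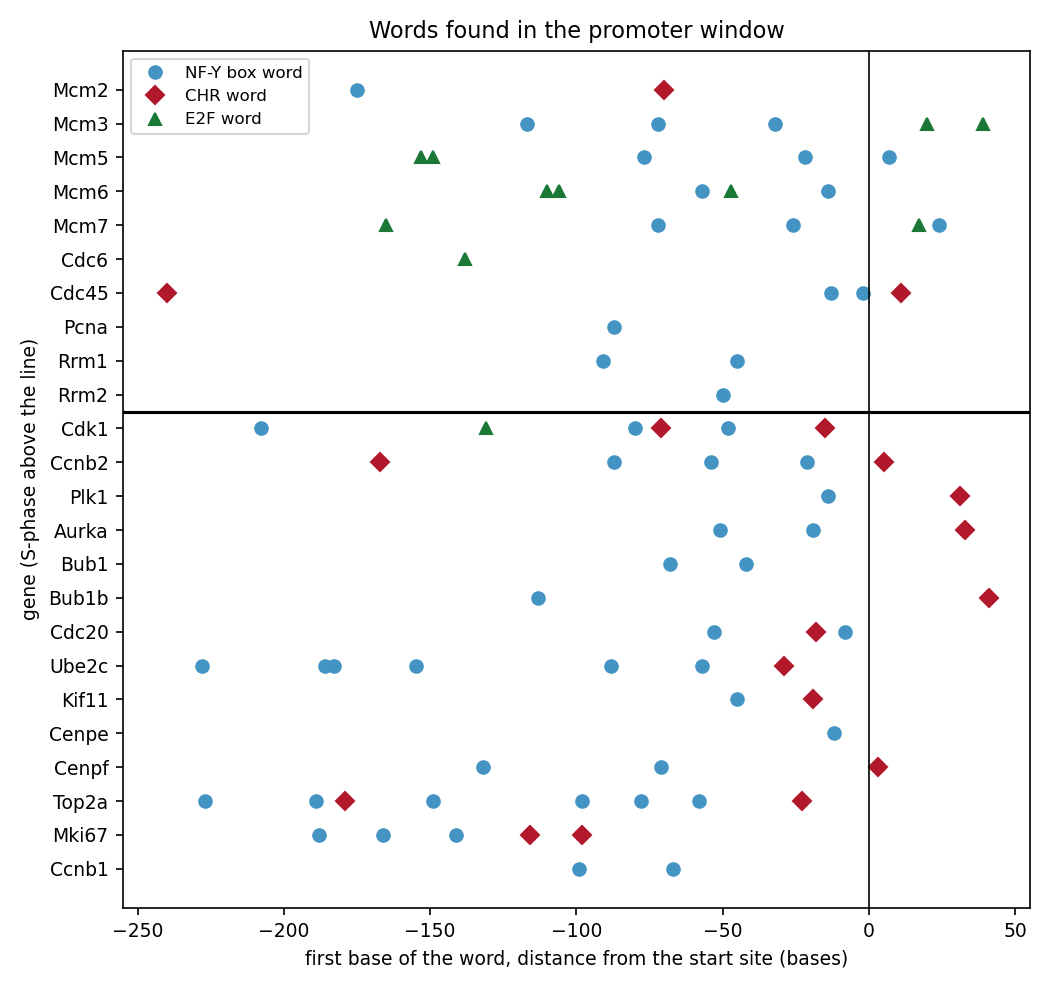
Position of each word (horizontal axis, distance of its first base from the start site in bases) in the promoter windows of the members that hold at least 1 word (vertical axis). Diamonds for the CHR word lie mostly in mitotic genes, below the line, with 11 of 16 mitotic and 2 of 14 S-phase promoters holding it, and triangles for E2F words lie in 5 S-phase genes and Cdk1.

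The main comparison asked whether cell cycle transcripts differed between CD4 T cells with and without the Cre. Of the 35 members measured, 0 passed an adjusted p of 0.05 in limma, 4 had an unadjusted p under 0.05 (Cdc6, Top2a, Aurka and Mcm6), and the smallest adjusted p was 0.234, for Cdc6. Over all genes, 83 passed, which is 0.416%, and 14.5% had an unadjusted p under 0.05. The mean log2 signal was higher in the conditional group for 30 members, beside 11144 of 19937 genes. It was lower for 5 members (Mcm2, Pcna, Ccnb2, Bub1b and Cdc20), beside 8793 genes. In 6 members every conditional array lay above both controls (Mcm5, Mcm6, Cdc6, Cdc45, Aurka and Top2a), which is 17.1% against 17.4% of all genes, so this share is at the background. In 0 members did every conditional array lie below both controls, against 13.1% of all genes. The RNA came from whole sorted samples, in which fewer cells of a type and less RNA per cell cannot be told apart.

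The size of the difference depended on which control it was taken against and on conditional replicate 3. The median difference over the 35 members was 0.22 on the log2 scale, 0.10 for the 16 S-phase members and 0.32 for the 19 mitotic members, beside 0.03 for all genes. With control replicate 1 as the sole control, the same 3 medians came to 0.39, 0.26 and 0.43, beside 0.09 for all genes. With control replicate 2 they came to 0.06, 0.03 and 0.11, beside -0.02. With both controls but without conditional replicate 3 they came to 0.06, 0.05 and 0.09, beside 0.01. Without control replicate 2, limma called 4 members higher (Mcm5, Mcm6, Aurka and Top2a, smallest adjusted p = 0.012) in a comparison that called 11.0% of all genes higher. Without control replicate 1 it called 0 members, 2 had an unadjusted p under 0.05, and 6.1% of all genes were called. These fits each hold 1 control array and take their spread from the 3 conditional arrays alone. Their p-values therefore hold no variation between controls. The 4 of 35 members called without control replicate 2 are a share close to the 11.0% of all genes. They are not read as a difference of the members. Control replicate 1 was the lowest array for 25 of the 35 members, against 38.8% of all genes. It is also the array with the low T cell and high epithelial and stromal marker sums given above. The part of those cell markers in the member values was not tested.

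**Figure D2:**
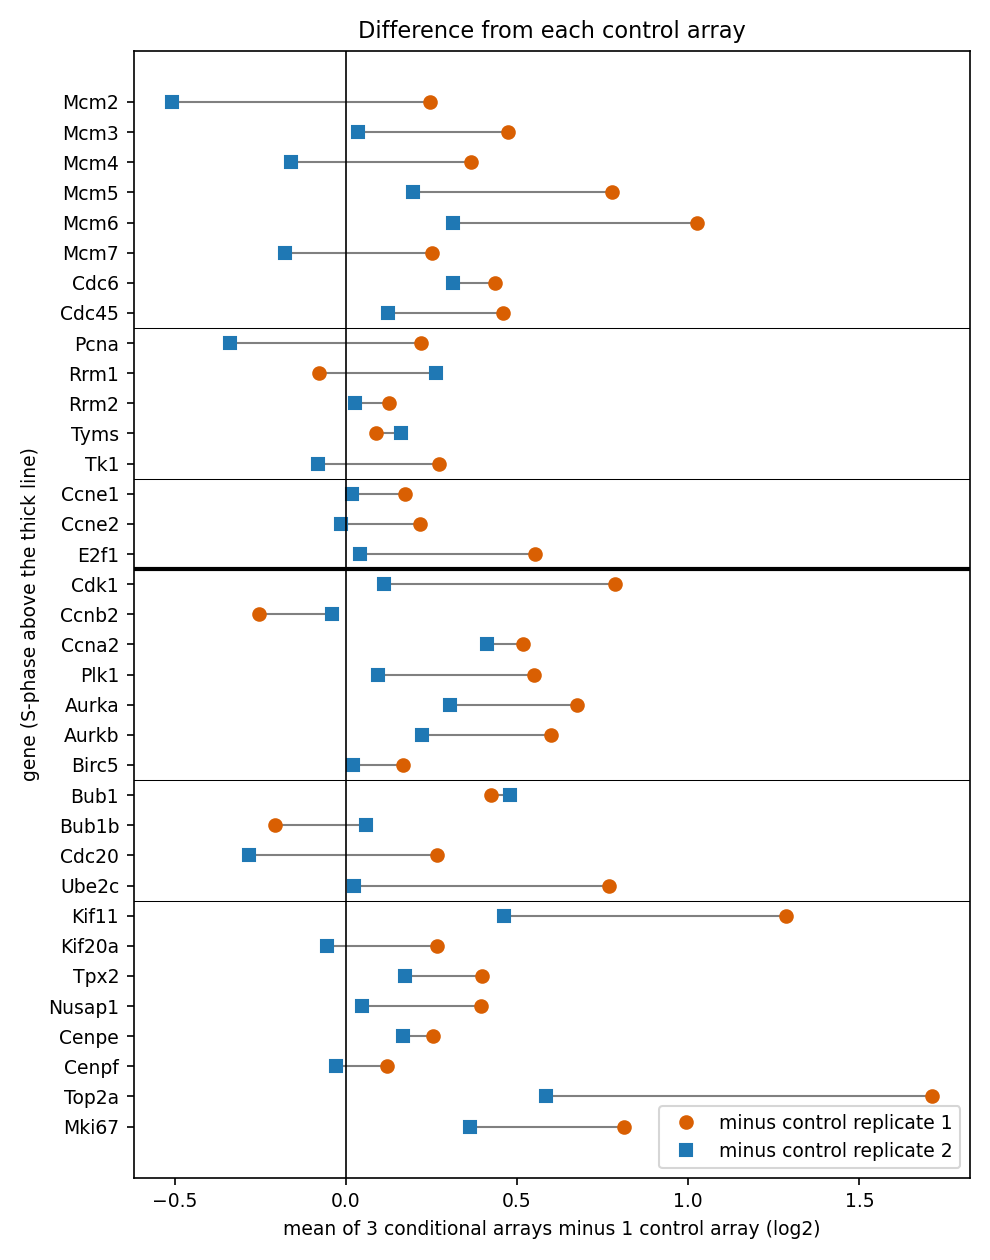
Difference of the mean of 3 conditional arrays from control replicate 1 (circles) and from control replicate 2 (squares), in log2 units, for each member. The circles centre on a median of 0.39 and the squares on 0.06. The conditional mean was above control replicate 1 in 32 of 35 members, beside 12228 of 19937 genes. It was above control replicate 2 in 25 of 35 members, beside 9198 of 19937 genes.

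Of 8 origin licensing and firing genes, 4 had every conditional array above both controls (50%, beside 17.4% of all genes), and 0 passed the adjusted test. Mcm6, a subunit of the MCM2-7 helicase, read 9.11, 9.44 and 9.53 on conditional replicates 1, 2 and 3 and 8.33 and 9.05 on control replicates 1 and 2. All conditional arrays lay above both controls, the nearest pair being conditional replicate 1 and control replicate 2. The difference was 0.67 (1.59-fold, SE 0.259, 95% interval 0.01 to 1.33, limma adjusted p = 0.341), 1.02 against control replicate 1 and 0.31 against control replicate 2. Mcm5, another helicase subunit, read 8.85, 8.92 and 9.27 against 8.24 and 8.82, and here conditional replicate 1 and control replicate 2 were nearly level. Its difference was 0.49 (interval -0.10 to 1.07, limma adjusted p = 0.425). Cdc6, which loads the helicase onto origins, had the smallest standard error of the members (0.110): 6.89, 6.75 and 6.77 against 6.37 and 6.49. Its difference of 0.37 (1.30-fold, interval 0.09 to 0.66) was close against each control, at 0.44 and 0.31, and it is the member whose highest array was conditional replicate 1. Cdc45, which joins the helicase when origins fire, read 7.55, 7.5 and 7.73 against 7.13 and 7.47, a difference of 0.29 (limma adjusted p = 0.464).

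The remaining helicase subunits did not share that separation. Mcm2 read 8.50, 8.62 and 8.84 on the conditional arrays and 8.4 and 9.16 on the controls, so that the controls bracketed all 3 conditional values. Its difference was -0.13 (interval -0.79 to 0.52), made up of 0.25 from control replicate 1 and -0.51 from control replicate 2. Mcm4 (difference 0.10) and Mcm7 (0.04) were likewise bracketed by the 2 controls and were highest on control replicate 2. Mcm3 read 7.66, 7.77 and 7.94 against 7.31 and 7.75, a difference of 0.26 (interval -0.20 to 0.71). Control replicate 1 was the lowest array for all 8 licensing and firing genes. The 6 subunits of this one complex therefore ran from -0.13 to 0.67, with 2 of them, Mcm5 and Mcm6, apart between groups.

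Genes that supply nucleotides or clamp the polymerase differed little. Pcna, the sliding clamp, read 11.92, 12.00 and 11.95 on the conditional arrays and 11.74 and 12.29 on the controls, a difference of -0.06 with overlap. Rrm2, the regulated subunit of ribonucleotide reductase, read 7.69, 7.89 and 8.42 against 7.88 and 7.98, so conditional replicate 3 was above and conditional replicate 1 below both controls. Its partner subunit Rrm1 read 8.92, 9.20 and 9.26 against 9.20 and 8.86, with control replicate 1 level with the upper conditional arrays. The differences of Rrm2 and Rrm1 were 0.08 (interval -0.53 to 0.69) and 0.09 (-0.34 to 0.53). Tyms, thymidylate synthase, differed by 0.12, and its highest array was conditional replicate 3 at 7.98. Tk1, the thymidine kinase of the salvage route, differed by 0.10 in the probe set chosen by the rule.

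For Pcna and Tk1 the choice of probe set matters to what was measured. The platform numbers its probe sets along the chromosomes, and the chosen sets of both genes had 0 of 8 numbering neighbours on the gene's own chromosome, while their other sets had 8 of 8. The other Tk1 set read 7.01, 6.96 and 7.41 on the conditional arrays and 6.51 and 6.94 on the controls, a difference of 0.40 (SE 0.208) in place of 0.10. The other Pcna set gave -0.06 as well. With these sets in place, the median over the 35 members was 0.26. Top2a also had 2 sets, both among neighbours of its own chromosome, and the one not chosen was dim, between 3.55 and 4.10, with a difference of -0.22.

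Regulators of the G1/S step overlapped between groups in all 3 cases. E2f1, a transcription factor for S-phase genes, read 7.58, 7.61 and 7.98 on the conditional arrays and 7.17 and 7.68 on the controls, with control replicate 2 inside the conditional range. Its difference was 0.30 (interval -0.26 to 0.85), of which 0.55 stood against control replicate 1 and 0.04 against control replicate 2. The E-type cyclins Ccne1 and Ccne2, which activate Cdk2 at S-phase entry, differed by 0.09 and 0.10. Against control replicate 2 they differed by 0.02 and -0.01.

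Among mitotic kinases and cyclins the conditional arrays were spread more widely, with replicate 3 at the top. Ccna2, the cyclin of S phase and G2, read 6.41, 7.10 and 8.32 on conditional replicates 1, 2 and 3 and 6.76 and 6.87 on the controls. Conditional replicate 1 lay below both controls and the other two above them, and the difference of 0.46 had an interval of -0.97 to 1.90. Without conditional replicate 3 it was -0.06. Cdk1, the kinase that starts mitosis, read 7.04, 7.21 and 7.74 against 6.55 and 7.22, so control replicate 2 sat above 2 of the 3 conditional arrays. Ccnb2, a B-type cyclin partner of Cdk1, read 7.34, 7.51 and 8.21 against 7.94 and 7.73, and its difference of -0.15 was the lowest among all members. Aurka, the centrosome Aurora kinase, was the one member of this group with the groups apart: 7.53, 7.54 and 7.90 against 6.98 and 7.35, a difference of 0.49 (1.40-fold, interval 0.01 to 0.97, limma adjusted p = 0.335). Aurkb, the Aurora kinase of the chromosomal passenger complex, read 7.52, 7.36 and 8.28 against 7.12 and 7.5. Birc5, survivin of the same complex, differed by 0.09, and Plk1, the Polo kinase, by 0.32 (interval -0.32 to 0.96).

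Checkpoint and anaphase-promoting complex genes overlapped between groups in all 4 cases. Bub1, a spindle checkpoint kinase, read 5.24, 5.87 and 6.61 on the conditional arrays and 5.48 and 5.43 on the controls. Its related checkpoint protein Bub1b read 6.83, 6.64 and 7.07 against 7.06 and 6.79, a difference of -0.07, so the 2 checkpoint genes had values of opposite sign. Ube2c, the ubiquitin-conjugating enzyme of the anaphase-promoting complex, read 7.42, 7.19 and 8.18 against 6.82 and 7.57. Cdc20, an activator of that complex, differed by -0.01 and was the one mitotic member whose highest array was not conditional replicate 3, with 7.85 on control replicate 2 against 7.69.

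Spindle and chromosome genes held the largest differences among the members. Top2a, the topoisomerase that untangles sister chromatids, read 7.55, 8.05 and 8.41 on the conditional arrays and 6.29 and 7.42 on the controls. The groups were apart, but conditional replicate 1 exceeded control replicate 2 by little next to the spread within either group. The difference was 1.15 (2.22-fold, SE 0.417, interval 0.08 to 2.21, limma adjusted p = 0.316), 1.71 against control replicate 1 and 0.58 against control replicate 2. Kif11, the kinesin that pushes spindle poles apart, read 7.04, 7.45 and 8.10 against 6.25 and 7.07, a difference of 0.87 (interval -0.14 to 1.89, limma adjusted p = 0.409) in which control replicate 2 narrowly overlapped. Mki67, the proliferation marker Ki-67 that coats mitotic chromosomes, read 8.0, 8.30 and 9.15 against 7.67 and 8.12, with control replicate 2 above conditional replicate 1. Its difference was 0.59 (1.5-fold, interval -0.37 to 1.55, limma adjusted p = 0.546). The other 5 genes of this group (the kinesin Kif20a, the spindle assembly factors Tpx2 and Nusap1, and the kinetochore proteins Cenpe and Cenpf) differed by 0.05 to 0.29 and overlapped between groups.

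**Figure D3:**
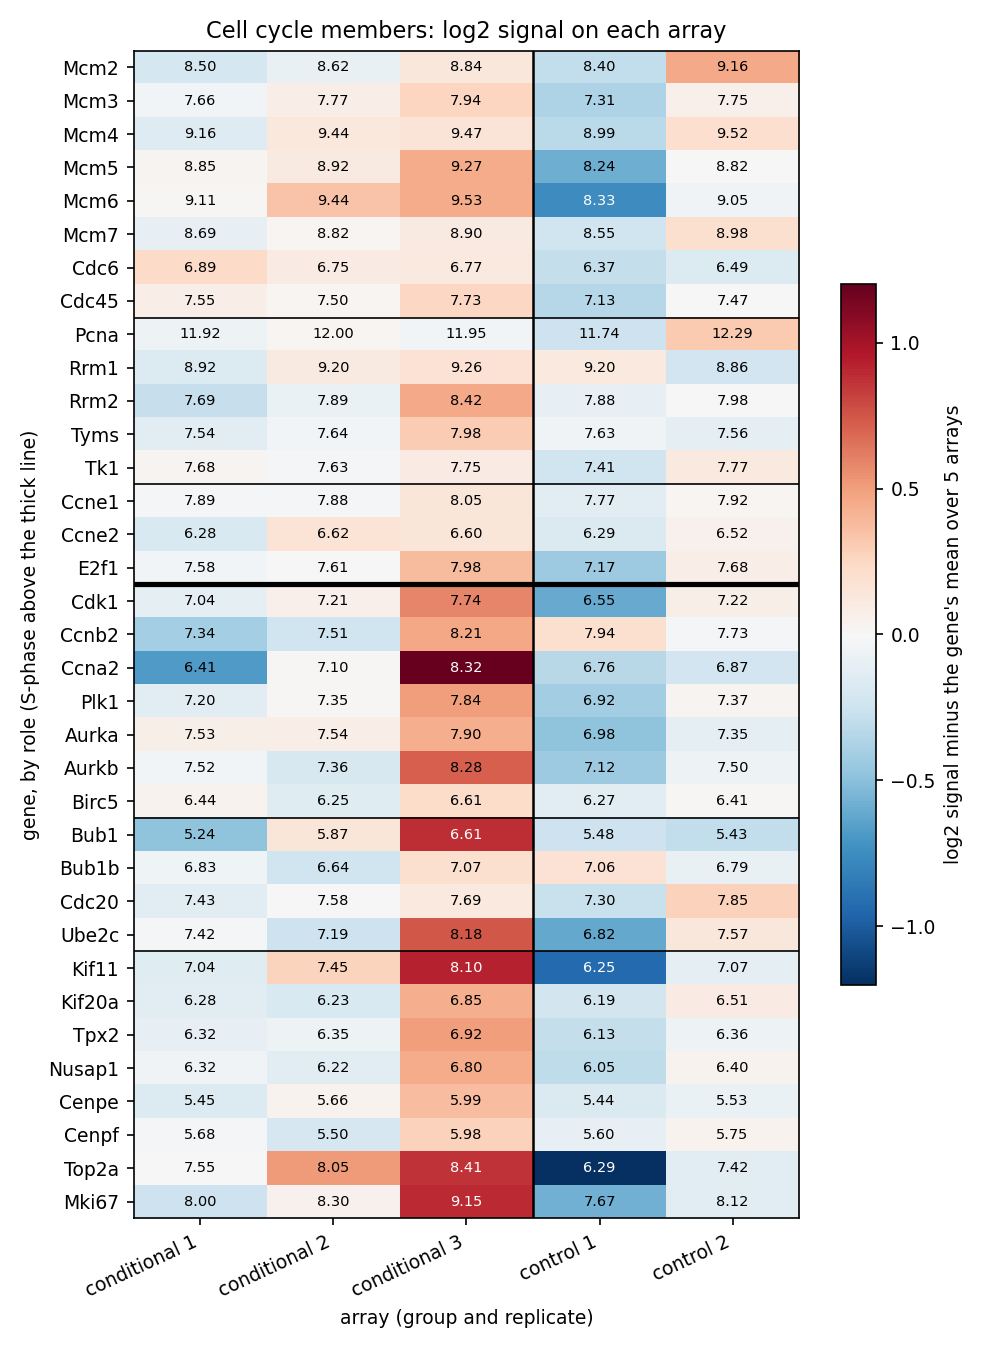
Log2 signal of the 35 measured members (rows, by role) on each of 5 arrays (columns), with colour for the distance from that gene's mean over the arrays. The column of conditional replicate 3 is the highest in 18 of 19 mitotic rows, and the column of control replicate 1 is the lowest in 25 of 35 rows.

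Conditional replicate 3 read higher than the other arrays in nearly all mitotic members and in fewer of the S-phase members. It was the highest array for 18 of 19 mitotic members and 9 of 16 S-phase members, against 23.7% of all genes. Its excess over the mean of conditional replicates 1 and 2 had a median of 0.60 over mitotic members and 0.20 over S-phase members, beside 0.05 over all genes. By that excess, 13 of 19 mitotic members and 1 of 16 S-phase members (Rrm2) were in the top 1% of all genes. The single values were 1.56 for Ccna2, 1.05 for Bub1, 1.0 for Mki67, 0.88 for Ube2c and 0.86 for Kif11. Measured as distance from each gene's mean over the arrays, the mitotic median exceeded the S-phase median by 0.34 on conditional replicate 3. On conditional replicates 1 and 2 the same gap was -0.07 and -0.02, and on control replicates 1 and 2 it was -0.04 and -0.10. This is a difference within the conditional group between single samples, and it has no replicate check.

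Other cell markers moved on the same array. The linear signal summed over 18 of 20 listed macrophage and dendritic markers was 7375 on conditional replicate 3, against 3967 and 4304 on the other conditional arrays and 2081 and 2619 on the controls. Of those 18 markers, 9 were in the top 1% of all genes by the same excess. The markers did not all rise. The excess was above 0 in 14 of the 18, beside 12975 of 19937 genes, and the lowest was -0.80. The lowest value of any marker of that list on any array was 5.42 on the log2 scale. The T cell sum was also highest within the conditional group there, at 41557, and the stromal sum was lowest, at 18020. Summed crypt epithelial markers, which belong to a compartment that divides, lay between 5639 and 6421 on all 5 arrays. That list includes Cd44, which also marks T cells, and its 13 measured markers went both ways. Their differences from control replicate 1 ran from -1.83 to 1.12. Between the groups, 2 were apart higher (15.4%, beside 17.4% of all genes) and 4 apart lower (30.8%, beside 13.1%). The flat sum is therefore not a measure of crypt cells. The part of these cells in the mitotic values of conditional replicate 3 was not tested. Taking conditional replicates 1 and 2 against control replicate 2, which leaves out both arrays that stood apart, the medians were -0.06 for all members, -0.05 for S-phase and -0.07 for mitotic members, and Mcm2 was the 1 member called, lower in the conditional group (limma adjusted p = 0.0413). That is 1 of 35 members where 4.52% of all genes were called lower. The comparison was chosen after seeing the data and holds 1 control array. Its prior degrees of freedom were infinite, so limma gave every gene the same spread, estimated from the 2 conditional arrays over all genes. The Mcm2 call therefore rests on the size of its difference and not on the spread of Mcm2 between replicates.

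**Figure D4:**
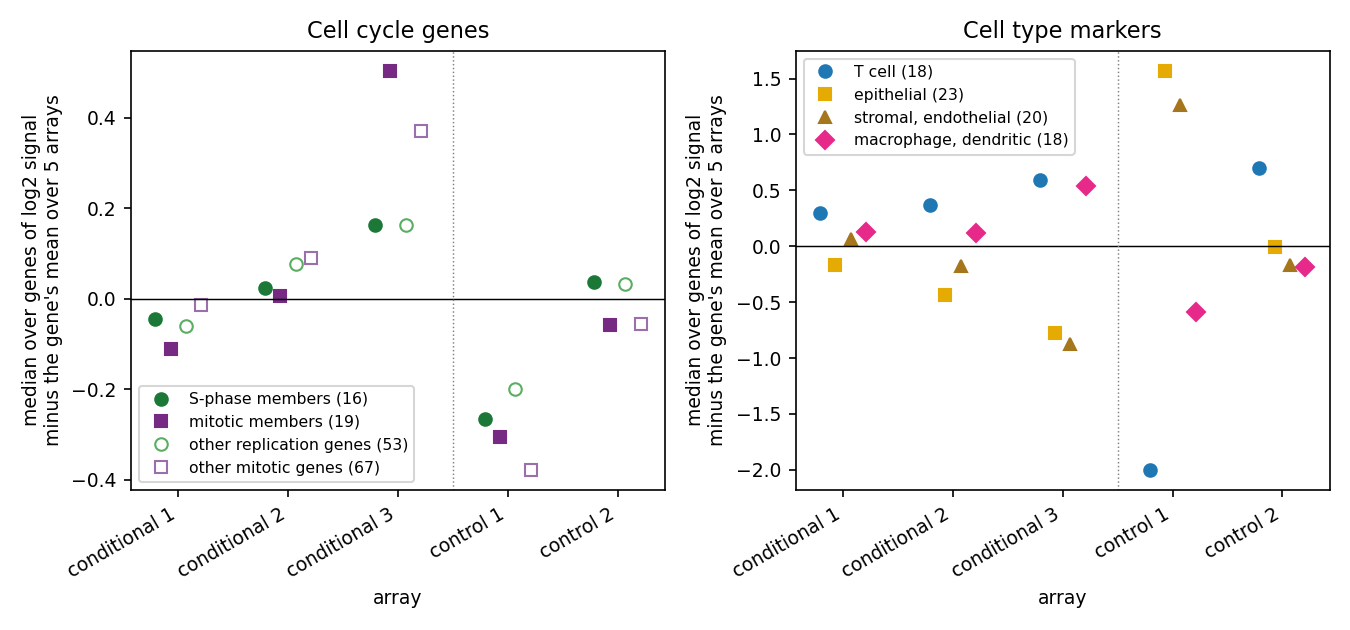
Median over the genes of each list (vertical axis, log2 signal minus that gene's mean over 5 arrays) on every array, for cell cycle lists (left) and cell type markers (right), with the number of genes in parentheses. Mitotic members reach 0.50 on conditional replicate 3 and S-phase members 0.16, and T cell markers are lowest on control replicate 1.

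Further genes of the same machinery were taken from lists. Of 67 other mitotic genes measured (of 70 listed), 1 was called higher and 0 lower, with a median difference of 0.33, made up of 0.54 from control replicate 1 and 0.18 from control replicate 2. In 30 of them every conditional array exceeded both controls, 44.8% against 17.4% of all genes, and 57 were highest on conditional replicate 3. Markers of other cell types separated the groups in the same direction, with 10 of 18 macrophage and dendritic markers (55.6%) and 10 of 17 granulocyte and mast cell markers (58.8%) apart higher. The summed granulocyte and mast signal was 2503 to 2824 on the conditional arrays and 1287 and 1391 on the controls, and the part of these cells in the mitotic values was not tested. The called gene was Kif23, a kinesin of the central spindle that acts in cytokinesis. Its log2 signal was 9.28, 9.32 and 9.42 on the conditional arrays and 7.09 and 7.66 on the controls, with the conditional arrays close together and far above both. The difference was 1.96 (3.90-fold, SE 0.194, interval 1.47 to 2.46, limma adjusted p = 0.0431), and it was 1.93 without conditional replicate 3. The adjusted p in limma rose to between 0.231 and 0.373 for Kif23 and Cks2 when any one conditional array was left out. In each of those fits 0 of all genes passed. Against control replicates 1 and 2 taken singly, Kif23 differed by 2.25 and 1.68, and Cks2 by 1.60 and 1.21.

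Cks2, which binds cyclin-dependent kinases, was the 1 called gene of 33 cyclin, kinase and E2F regulators. It read 10.38, 10.38 and 10.47 on the conditional arrays against 8.81 and 9.20, a difference of 1.40 (2.64-fold, SE 0.149, limma adjusted p = 0.0497). That probe set had 0 of 8 numbering neighbours on the gene's own chromosome. The set with 7 of 8 there read 6.05, 6.64 and 6.68 against 5.21 and 6.26, overlapped between groups and differed by 0.72 (limma adjusted p = 0.46), so the call for Cks2 was not made in the set numbered among genes of its own chromosome. Another Cks2 set, also with 0 of 8 neighbours there, read 9.02, 9.14 and 9.26 against 7.66 and 7.75, a difference of 1.44 that was close to that of the called set. The median over those 33 regulators was 0.19, with 0.24 from control replicate 1 and 0.10 from control replicate 2. Of them 11 were apart higher (33.3%, beside 17.4% of all genes) and 7 apart lower (21.2%, beside 13.1%).

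Of 53 other replication genes (of 54 listed), 0 were called and 7 had an unadjusted p under 0.05. In 15 the groups were apart higher (28.3%, beside 17.4% of all genes) and in 6 apart lower (11.3%, beside 13.1%). Their median was 0.16, with 0.25 from control replicate 1 and -0.02 from control replicate 2. The smallest p-values were those of Pole2, a subunit of the leading-strand polymerase, at -1.07 (limma adjusted p = 0.107; -0.80 and -1.35 against control replicates 1 and 2), and Pold3, a subunit of the lagging-strand polymerase, at 0.70 (0.143; 0.55 and 0.85). Hells, a chromatin remodeller of dividing lymphocytes, differed by 1.78 (0.174), from 7.08, 8.04 and 8.22 on the conditional arrays against 5.60 and 6.39. Rpa2, which coats single-stranded DNA, differed by 0.59 (limma adjusted p = 0.181; 0.77 and 0.41 by control). The 2 polymerase subunits thus had values of opposite sign, and neither passed.

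Inhibitors of the cell cycle showed 0 calls among 26 measured of 29 listed, with 5 at an unadjusted p under 0.05. Their median was -0.07, and its sign turned with the control, being 0.08 against control replicate 1 and -0.16 against control replicate 2. Of the 26, 3 were apart higher (11.5%, beside 17.4% of all genes) and 6 apart lower (23.1%, beside 13.1%). Gadd45a, a stress-induced growth arrest gene, read 8.22, 8.50 and 7.98 against 9.39 and 9.07, a difference of -1.0 (limma adjusted p = 0.131). Klf4, a transcription factor that restrains division in T cells and epithelium, differed by -1.19 (limma adjusted p = 0.132; -1.48 and -0.89 against control replicates 1 and 2), and it is also abundant in colon epithelium. Btg2, an antiproliferative immediate-early gene, differed by -0.71 (-0.51 and -0.90 in the same order), and Foxo3, a forkhead factor of quiescent cells, by -0.46 (-0.56 and -0.36). Btg2 also belongs to the immediate-early and stress list, whose summed linear signal was 39401 to 44541 on the conditional arrays and 67034 and 80593 on the controls, and the part of that difference here was not tested. Among 21 of 24 DNA damage genes 0 were called and 4 had an unadjusted p under 0.05, with a median of 0.19 (0.25 from control replicate 1, 0.08 from control replicate 2). The damage kinase Atm differed by -1.13 (limma adjusted p = 0.0949; -0.89 and -1.37 by control). Brca1, a repair factor induced in S phase, differed by 0.77 (limma adjusted p = 0.256; 0.97 and 0.57 by control).

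**Figure D5:**
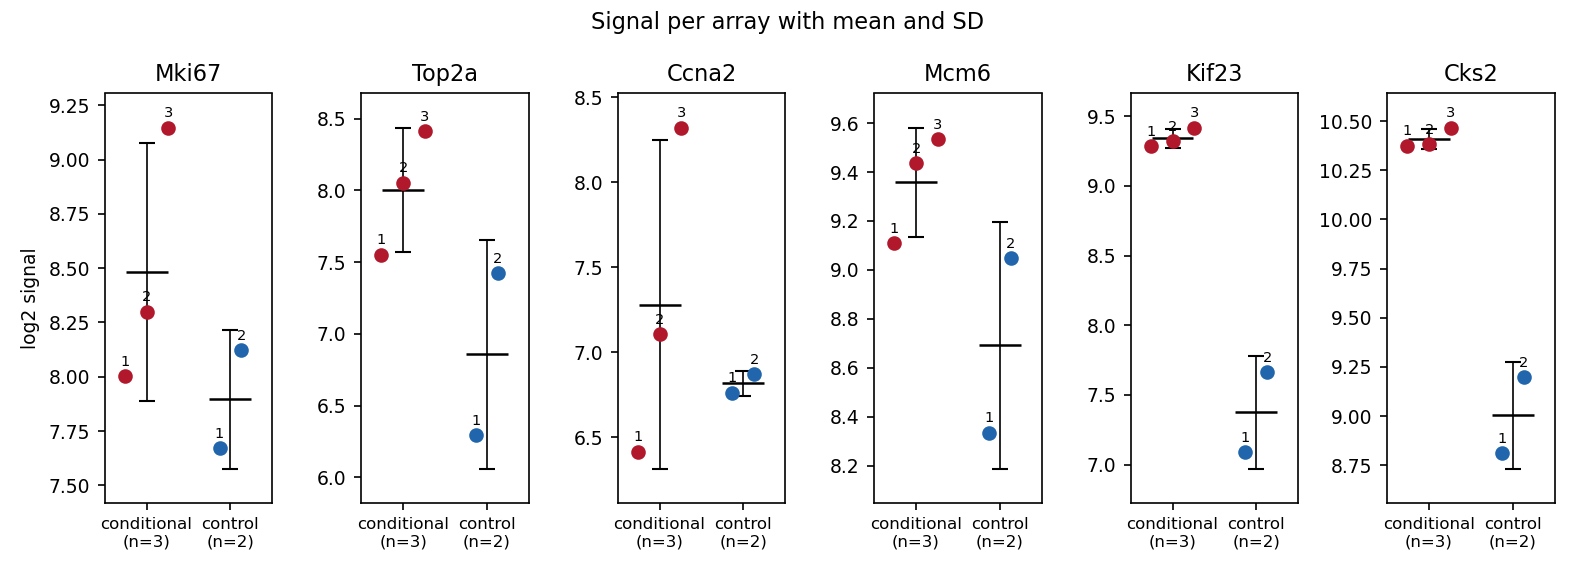
Log2 signal of 6 genes on each array (points, numbered by replicate), with the mean (wide bar) and SD (capped line) of 3 conditional and 2 control arrays; each panel has its own vertical axis, which does not start at 0. Kif23 and Cks2 hold the conditional arrays close together above both controls, whereas Ccna2 runs from 6.41 to 8.32 within the conditional group.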

How the data were processed

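RNA of the 5 sorted samples was hybridised to arrays, and groups and replicate numbers come from the genotype labels and titles. The authors deposited log2 signals, and the submitters' processing notes name RMA and oligo. Their versions and the build are not stated in the labels. RMA equalises the arrays' distributions, which hides a global shift and shrinks differences of dim genes. Array medians lay between 7.12 and 7.23, and precision is limited by having 5 arrays.

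Of 34760 probe sets, 21640 carried 1 gene symbol in the platform annotation, 1321 several and 11799 none. Each of 19937 genes was represented by its single-symbol probe set of highest mean. Groups were compared with limma 3.58.1 (R 4.3.3, lmFit and eBayes), without covariates, with Benjamini-Hochberg adjustment over all genes and a threshold of 0.05. The procedure was tested on simulated data, with planted changes larger than the difference of any member and the same spread on every array. That test does not cover small differences or controls that differ in cell content. The fit had 3 residual degrees of freedom and a prior of 2.10. Intervals on shares of promoters are exact Clopper-Pearson intervals.

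The members and lists were chosen with earlier results of these data known. All members are named, and of each related list the called genes or up to 4 with the smallest p.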

Additional observations from a re-analysis of the deposited data

How the results depend on the processing

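The comparison was repeated under 14 alternatives (a second quantile normalization, centring, 2 filters on dim genes, 2 other probe set rules, a variance trend, array weights, the replicate block, and each array left out) and 2 chosen after seeing the data. The 83 called genes became 47 with quantile normalization once more and 13 with array weights, and leaving out 1 array gave 0 to 5474, the latter without control replicate 2. With conditional replicate 1, 2 or 3 left out, 0 genes passed in limma, although 2037, 1677 and 1417 had an unadjusted p under 0.05. Leaving out 1 array gave 0 to 4 called members, 7 to 25 members with groups apart, S-phase medians of 0.032 to 0.26, mitotic medians of 0.09 to 0.45 (lowest without conditional replicate 3) and member medians of 0.059 to 0.39. Conditional replicates 1 and 2 against control replicate 2 gave 2085 called genes, 1 called member, 24 members apart, and medians of -0.063 for all members, -0.052 for S-phase and -0.069 for mitotic members. These counts of members apart pool both directions, and no share of all genes stands beside them. Against 1 control array, a gene counts as apart unless that control lies within the conditional range, which is easily met. The 25 members apart without control replicate 2 and the 24 above are therefore not comparable with the 6 of the main comparison. They are not read as separation of the members. In the fits with 1 control array, the calls of genes and members take no account of variation between controls. Centring moved the median of all genes from 0.03 to 0.12 and that of the members to 0.31.

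The differences of 15 members changed sign when 1 array was left out, Ccna2 (0.46 with all arrays) among them. Over the 5 fits that leave out 1 array, Mcm2 ran from -0.51 to 0.25, Mcm4 from -0.16 to 0.37, Mcm7 from -0.18 to 0.25, Pcna from -0.34 to 0.22, Rrm1 from -0.077 to 0.26, Rrm2 from -0.14 to 0.23, Tyms from -0.0051 to 0.21 and Tk1 from -0.082 to 0.27. Likewise Ccne2 ran from -0.013 to 0.22, Ccnb2 from -0.41 to 0.026, Ccna2 from -0.056 to 0.90, Bub1b from -0.21 to 0.059, Cdc20 from -0.28 to 0.27, Kif20a from -0.093 to 0.27 and Cenpf from -0.083 to 0.16. Centring gave 0.031 for Pcna, 0.015 for Bub1b and 0.080 for Cdc20. Array weights gave 0.10 for Ccnb2, 0.040 for Bub1b and 0.046 for Cdc20, and quantile normalization gave 0.052 for Cdc20. Kif23 and Cks2 lost their calls with quantile normalization (adjusted p = 0.0625 and 0.081) and array weights (0.0811 and 0.103) in limma, and Cks2 also with the filter at the median (0.0502), the mean of its probe sets (0.0947) and its own-locus set (0.46). The causes were not tested.

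Replicate numbers 1 and 2 occur in both groups. Deviations of same-numbered arrays correlated at 0.40 for number 1 and -0.29 for number 2, but with 2 controls their deviations are mirror images, so this check cannot tell whether the numbers pair the samples, and the labels do not say that they do. With the replicate block, 69 genes and 0 members passed, the member median was 0.06, and Kif23 and Cks2 had adjusted p-values of 0.0538 and 0.136 in limma. Number 3 occurs in the conditional group alone, so the block gives the same differences as leaving out conditional replicate 3. It had 1 residual degree of freedom and is not a separate check of those differences. In both fits the sign turned for Mcm7 (-0.012), Rrm2 (-0.14), Tyms (-0.0051), Ccna2 (-0.056), Kif20a (-0.093) and Cenpf (-0.083).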

Other observations

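Histone genes, most of which are transcribed in S phase, were picked by name after the other values were seen. The set can therefore hold variants that are not S-phase genes. Among 27 of them limma called 0, and 3 had an unadjusted p under 0.05. Their median difference between conditional and control arrays was -0.09, made up of 0.02 from control replicate 1 and -0.21 from control replicate 2. Of the 27, 0 were apart higher (beside 17.4% of all genes) and 6 apart lower (22.2%, beside 13.1%). On conditional replicate 3 their median excess over the other conditional arrays was 0.18, and 7 of 27 were in the top 1% of all genes by that excess. H1f5, a linker histone, read 7.91, 8.21 and 8.97 on the conditional arrays and 8.25 and 8.45 on the controls. H2ac4, a core histone gene, read 4.79, 4.97 and 6.10 against 4.73 and 5.37. These genes are near-identical copies, so a probe set can read several of them.

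The genes with the largest excess on conditional replicate 3 were read after the fact. The 4 largest were Mmp13, a collagenase, at 2.72, Inhba, an activin subunit, at 2.42, C1qb, a complement chain made by macrophages, at 2.33 and C3ar1, a complement receptor, at 1.68. Ccna2 ranked 8 in that order, Bub1 23 and Mki67 25. Ighg3, an immunoglobulin constant region, stood at the other end with -4.81.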
